A study of Mus musculus with 2 samples.

Results

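Translation initiation and elongation factors are the proteins that bring messenger RNA, initiator tRNA and ribosomal subunits together and then move the ribosome along the message. The genes described here are all those whose single symbol on the array starts with Eif1 to Eif6, Eef1 or Eef2, without the Eif2ak kinases, and the value of a gene is that of its brightest probe set, by mean log2 signal. The rule gave 54 of 18193 genes, covered by 142 probe sets. Of these genes 51 exceeded the floor of 10.3 on both arrays, and Eif2s3y, Eif4a3 and Eef2kmt were below it on both. Signals below that floor were raised to it before ratios were taken. Another 3 probe sets that carry several symbols, the first of which starts with Eif1 to Eif6, Eef1 or Eef2, were left out by the rule. Probe sets with such a symbol in a later place were left out as well and were not counted.

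The samples were splenic antigen-presenting cells (APCs) of wild-type, 10-week-old female C57BL/6 mice, cultured overnight together with CD4+ T cells bearing the P25 T cell receptor. The P25 group had the peptide P25, a mycobacterial antigen peptide that this receptor recognises, and the medium group had medium in its place; the T cells were in both cultures. APCs were enriched afterwards, and RNA of 3 experiments was mixed for 1 Affymetrix array per group. With 1 array each there is no replicate spread and no test: every ratio below is a P25 signal over a medium signal, described only.

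In eukaryotes, initiation starts when eIF2 carries the initiator tRNA to the small ribosomal subunit, helped by eIF1, eIF1A, eIF3 and eIF5. The cap-binding complex eIF4F recruits the message, the loaded subunit scans to the start codon, and eIF5B joins the large subunit. eEF1A then delivers each aminoacyl-tRNA, eEF2 moves the ribosome on, and eIF5A relieves stalls. Activated lymphocytes and dendritic cells are known to raise protein synthesis, and control acts mostly on eIF2 through its exchange factor eIF2B and on eIF4E through its binding proteins.

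Among the 51 measured genes, 14 (27.5%) had a P25 signal at least 2 times the medium signal, against 9.43% of all 12897 measured genes. None was lower by that factor, against 7.22% of all. A log2 ratio above 0 was found for 44 of them (39 after an intensity-dependent loess correction), against 51.4% of all genes. Their median log2 ratio was 0.47, against 0.02 for all genes. At a lower threshold, 23 were at least 1.5-fold higher, against 20.9% of all genes, and none was at least 1.5-fold lower, against 18.3% of all. The 14 genes were Eif1a, Eef1e1, Eif4e, Eif2b3, Eif3b, Eif1ax, Eif2s2, Eif4e2, Eif4a1, Eif5b, Eif6, Eef1aknmt, Eif2b4 and Eif2b1. Among the initiation factors and their regulators 12 of 39 measured genes were in this group, with a median log2 ratio of 0.69. Among eIF5A, the elongation factors and their modifying enzymes it was 2 of 12, with a median of 0.36. These 2 were Eef1e1, an auxiliary gene of the synthetase complex, and the methyltransferase gene Eef1aknmt. No elongation factor proper was among them by its brightest probe set, but a dimmer probe set of Eif5a had a log2 ratio of 1.48. Several of these factors are bright, and of all genes with a mean signal of 4000 or more 0.826% were at least 2-fold higher. The absence is therefore not read as a difference from the initiation factors.

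**Figure D1:**
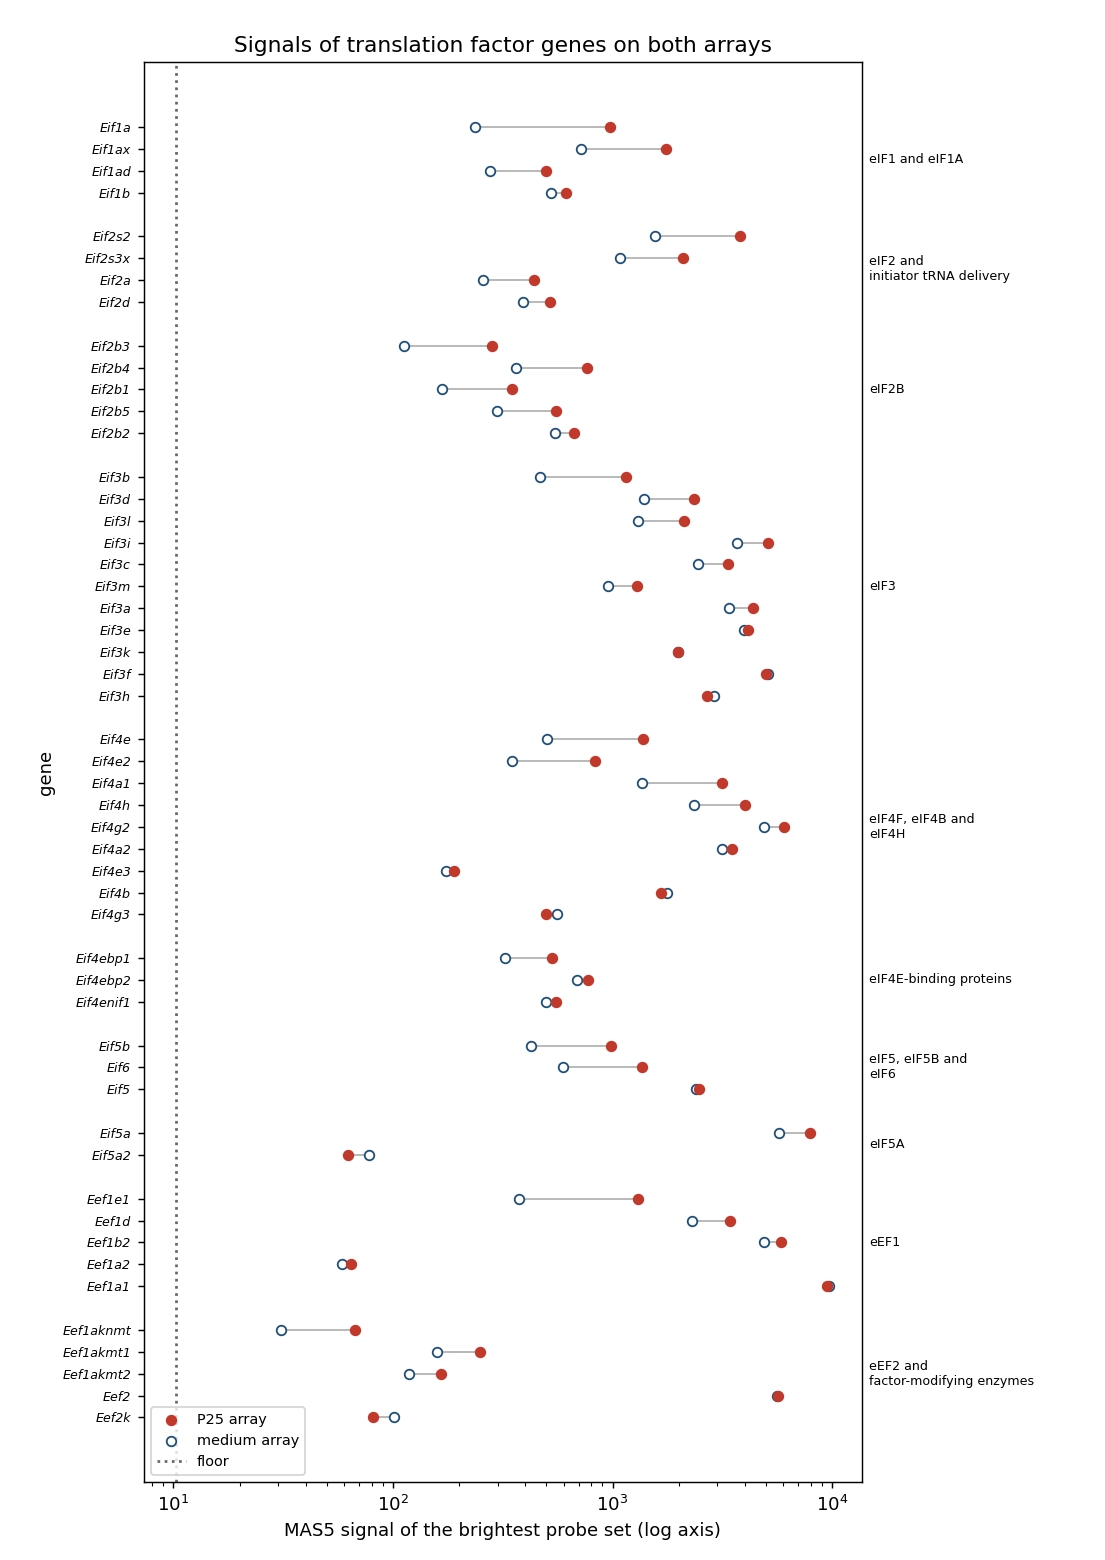
MAS5 signal (log axis) of the brightest probe set of each of the 51 measured translation factor genes, grouped by complex; filled points are the P25 array, open points the medium array, and the dotted line is the floor of 10.3. P25 points lie to the right for 44 genes, with the widest gaps at Eif1a and Eef1e1, while the points of Eef1a1, Eef2, Eif3f and Eif3k lie almost on each other.

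Several values that concern all ratios stand beside these counts. When the arrays were scaled to a common median of measured probe sets, or to a common level of the 18 hybridization spike-in probe sets, the log2 ratio of the median gene came to 0.15 or 0.16, against 0.02 on the deposited scale. With either scaling 4 of the 7 genes below 0 (Eif3f, Eif3h, Eif4b and Eef1a1) came out above it. Ratios of different probe sets of one gene disagreed with an SD of 0.58 on the log2 scale over 5293 genes. It was 0.44 over 2317 genes whose second probe set had signals of 100 or more. The SD of 0.58 is given below for scale only. Both probe sets were read on the same arrays, so it holds no spread between arrays or cultures. It cannot show whether a difference between genes would recur. Markers of the labelled APCs were read as sums: the summed signal of the B cell genes Cd79a, Cd79b, Ms4a1 and Pax5 was 13619 with P25 and 18479 with medium, with Ms4a1 alone above 0 at a log2 ratio of 0.23. It was 459.8 with P25 and 1120.3 with medium for 4 macrophage markers, with Fcgr1 alone above 0 at 0.49 and C1qa below the floor. The dendritic cell markers went both ways. Of the conventional ones, Zbtb46 had 80.0 with P25 and 14.0 with medium, whereas Sirpa, Itgax and Flt3 had log2 ratios of -1.43, -0.87 and -0.80, and Xcr1 was below the floor; their sum was 196 with P25 and 282 with medium. Of the plasmacytoid ones, Bst2, which is also interferon-inducible, had 480.1 with P25 and 113 with medium, whereas Siglech, Ccr9 and Tcf4 had log2 ratios of -1.07, -1.26 and -0.16; their sum was 1686 with P25 and 1544 with medium. For 4 neutrophil markers it was 5547 with P25 and 9488 with medium. Of 5 T cell markers Cd3e, Cd3d and Cd4 were below the floor on both arrays. Cd3g had 21.6 with P25 and 11.1 with medium, and Cd5 had 14.5 with P25 and 26.4 with medium, so that their sums of 36.2 with P25 and 37.5 with medium came from opposite ratios. Both red cell markers on the array, Hba-a1 and Alas2, were below it as well. The part of these cell type markers in the ratios was not tested. In such a mixed sample, fewer cells of a type and less RNA per cell cannot be told apart.

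The partners of the scanning ribosome included the gene with the highest ratio. eIF1A holds the small subunit in its open, scanning form, and in the mouse it has an autosomal gene, Eif1a, and an X-linked one, Eif1ax. Eif1a had a signal of 977 with P25 and 237 with medium, 4.12-fold higher, and a second, dimmer probe set gave 1.16 on the log2 scale. Eif1ax had 1751 with P25 and 718 with medium, 2.44-fold higher, but its other probe sets, both dimmer, gave log2 ratios of 0.28 and 0.53. Products of these genes are nearly alike, so their probe sets may share targets, which was not tested. Eif1b, a close relative of the start codon gatekeeper eIF1, had 612 with P25 and 527 with medium, a log2 ratio of 0.22. Eif1ad, whose protein has an eIF1A-like domain, had 497 with P25 and 277 with medium, 1.80-fold higher. All 4 genes of this group thus had higher signals on the P25 array, against 51.4% of all measured genes. The ratios of Eif1a and Eif1b differed by 1.82 on the log2 scale, or 3.14 times the SD between probe sets of a gene. Eif1 itself was not analysed here.

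eIF2 is the GTP-binding carrier of the initiator tRNA. Its β subunit gene Eif2s2 had 3805 with P25 and 1561 with medium, 2.44-fold higher. Its 5 further probe sets were all above 0, from 0.10 to 1.41 on the log2 scale, and 3 of them passed 2-fold. The γ subunit gene Eif2s3x had 2101 with P25 and 1083 with medium, 1.94-fold higher, with 0.89 and 1.15 on its other probe sets. Its Y-linked counterpart Eif2s3y was below the floor, at 7.28 with P25 and 3.81 with medium, in cells of female mice. Eif2s1, which encodes the regulated α subunit, was not analysed here. Eif2a and Eif2d, despite their names, are not subunits of eIF2 but factors that can deliver tRNA to the ribosome by other routes. Eif2a had 441 with P25 and 257 with medium, 1.72-fold higher, with 1.76 on the log2 scale for a second probe set. Eif2d had 517 with P25 and 393 with medium, 1.32-fold higher, and its 4 other probe sets lay between 0.29 and 0.69.

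eIF2B recharges eIF2 with GTP and is the step that the integrated stress response blocks. All 5 of its subunit genes had higher signals with P25, against 51.4% of all measured genes. With the median over probe sets 4 were above 0 and 1 below. On the brightest probe sets 3 of the 5 passed 2-fold, against 9.43% of all measured genes. The median log2 ratio of the complex was 1.06. Eif2b3, the γ subunit, had 283 with P25 and 112 with medium, 2.52-fold higher. Eif2b4, the δ subunit, had 765 with P25 and 365 with medium, 2.10-fold higher, which came to a log2 ratio of 0.99 after loess. Eif2b1, the α subunit, had 349.8 with P25 and 168 with medium, 2.08-fold higher. These 3 genes had a single probe set each. Eif2b5, the catalytic ε subunit, had 551 with P25 and 298 with medium, 1.85-fold higher; a second, dim probe set had 3.24 with P25, below the floor, and 20.7 with medium, the opposite direction, and the median over both came to -0.06. The β subunit gene Eif2b2 had the lowest ratio of the complex, at 668 with P25 and 546 with medium, 1.22-fold higher, with 0.40 and 0.64 on its other probe sets.

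eIF3 is the large scaffold that binds the small subunit and links it to eIF4F. Of its 11 measured subunit genes 1 (9.09%) was at least 2-fold higher with P25, near the 9.43% of all measured genes. The median log2 ratio was 0.43. Eif3b, a core subunit, had 1156 with P25 and 466 with medium, 2.48-fold higher, on its single probe set. Eif3d, whose protein can itself bind the cap of some messages, had 2340 with P25 and 1395 with medium, 1.68-fold higher. Eif3l had 2116 with P25 and 1307 with medium, 1.62-fold higher, but its dimmer probe sets disagreed, at 1.504 and -0.72. The scaffold subunits Eif3a and Eif3c and the core subunit Eif3i lay between 0.36 and 0.47 on the log2 scale. The 3 other probe sets of Eif3c gave 0.51 to 0.85. For Eif3a the brightest probe set, 4360.0 with P25 and 3404 with medium, gave the smallest ratio, and its other 3 gave 0.83 to 1.48, of which 2 passed 2-fold. Eif3m had 1291 with P25 and 957 with medium, a log2 ratio of 0.43, but a dim second probe set had 10.2 with P25, below the floor, and 24.8 with medium, the opposite direction, and the median over both came to -0.42. On their brightest probe sets the remaining subunits were close to equal on both arrays: Eif3e, Eif3k, Eif3f and Eif3h had log2 ratios of 0.06, 0.01, -0.03 and -0.11. Eif3f, for example, had 5007 with P25 and 5114 with medium. For Eif3e 2 other probe sets gave 0.09 and 0.47, the latter with 3667 with P25 and 2649 with medium. So within a complex whose subunits assemble together, the log2 ratios of measured genes spanned from -0.11 to 1.31.

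eIF4F joins the cap-binding protein eIF4E, the helicase eIF4A and the scaffold eIF4G. Eif4e had 1379 with P25 and 504 with medium, 2.74-fold higher, the highest ratio of the cap-binding group. Its next brightest probe sets gave 1.46 and 1.34 on the log2 scale, and the last one, close to the floor, gave -0.02. Eif4a1, the main helicase gene of growing cells, had 3153 with P25 and 1358 with medium, 2.32-fold higher, and both other probe sets passed 2-fold at 1.28 and 1.43. Its relative Eif4a2 had 3519 with P25 and 3164 with medium, a log2 ratio of 0.15. The ratios of Eif4a1 and Eif4a2 differed by 1.06 on the log2 scale, or 1.83 times the SD between probe sets of a gene. The cap-binding relatives also separated: Eif4e2, whose protein mostly represses messages, had 829 with P25 and 349 with medium, 2.38-fold higher, whereas Eif4e3 had 190.5 with P25 and 174 with medium, a log2 ratio of 0.13. The Eif4e2 value depended on the probe set, since its other 4 lay between -0.66 and 0.63.

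The rest of the eIF4 group had smaller ratios. Eif4h, a partner that stimulates the helicase, had 4001 with P25 and 2355 with medium, 1.70-fold higher. Of its 5 other probe sets 4 lay between 0.46 and 0.71, and 1 lay at -1.19 (146 with P25 and 331 with medium). Eif4b, with the same role as Eif4h, had 1654 with P25 and 1779 with medium, a log2 ratio of -0.11. Among scaffold genes, Eif4g2, whose protein lacks the eIF4E-binding part, had 6050.5 with P25 and 4907 with medium, a log2 ratio of 0.30, with other probe sets from -0.64 to 0.51. Eif4g3 had 498 with P25 and 561 with medium, a log2 ratio of -0.17, and all 3 other probe sets were below 0. Eif4g1 was not analysed here. Eif4a3, a core protein of the exon junction complex rather than of eIF4F, was below the floor on both arrays on its single probe set.

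The inhibitors that compete with eIF4G for eIF4E stayed within 2-fold. Eif4ebp1 had 532 with P25 and 324 with medium, 1.64-fold higher, with 0.30 and -0.02 on its other probe sets. Eif4ebp2 had 776 with P25 and 692 with medium, a log2 ratio of 0.16, and -0.66 to 0.15 on the others. Eif4enif1, which carries eIF4E into the nucleus and binds it in cytoplasmic granules, had 552 with P25 and 496 with medium, a log2 ratio of 0.16. Their median log2 ratio was 0.16, with Eif4ebp1 highest at 0.71, and the single gene Eif4e had 1.45.

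Of the factors that act around subunit joining, Eif5b and Eif6 passed 2-fold and Eif5 did not. Eif5b, the GTPase that joins the subunits, had 982 with P25 and 423 with medium, 2.32-fold higher, though its other probe sets gave 0.40 and 0.69. Eif6, which keeps the large subunit from joining too early and takes part in its assembly, had 1368 with P25 and 593 with medium, 2.31-fold higher, with 0.47 on a dim second probe set. Eif5, the factor that triggers GTP hydrolysis by eIF2, had 2468 with P25 and 2402 with medium, a log2 ratio of 0.04, and its 4 other probe sets lay from -0.69 to 0.31.

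**Figure D2:**
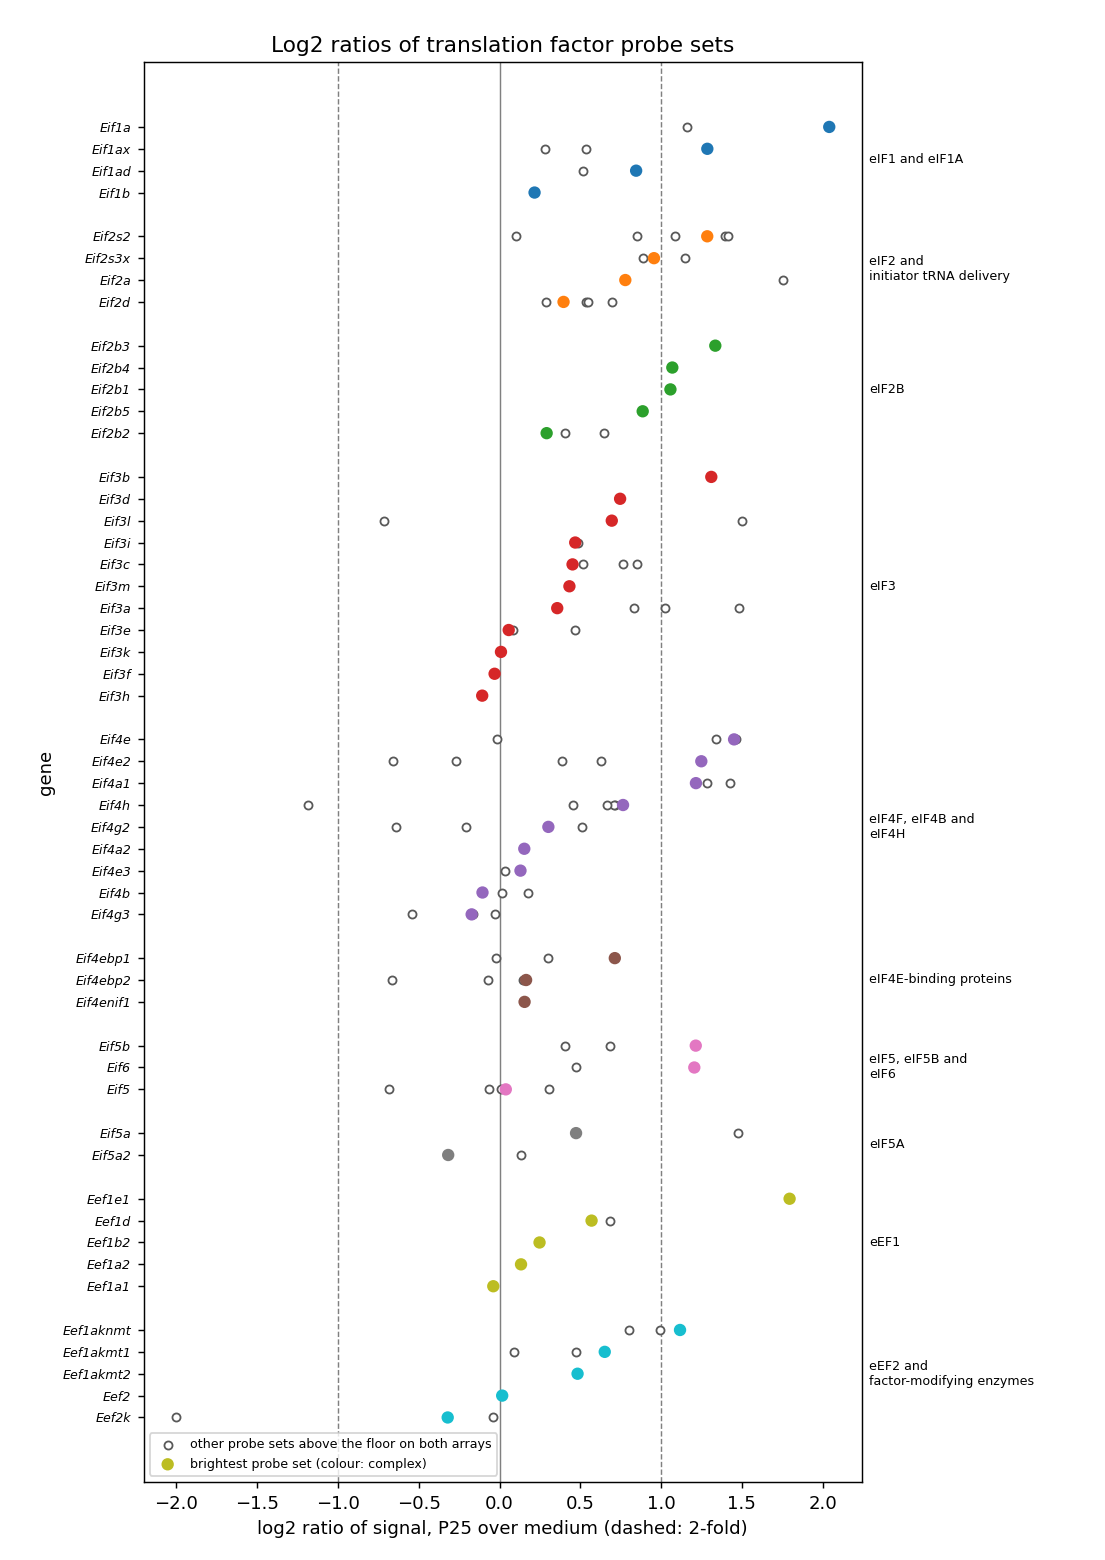
Log2 ratio of signal, P25 over medium, for each translation factor gene by complex; coloured points are the brightest probe set, open points further probe sets of the gene that exceeded the floor on each array, and dashed lines mark 2-fold. The probe sets of Eif4a1 all lie beyond 2-fold higher, those of Eif4e2 run from -0.66 to 1.25, and no brightest probe set lies beyond 2-fold lower.

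Of the elongation factors proper, Eef1a1 and Eef2 were bright and had nearly equal signals. Eef1a1, which brings aminoacyl-tRNA to the ribosome, had 9451 with P25 and 9708 with medium, a log2 ratio of -0.04. Eef2, the translocase, had 5649 with P25 and 5585 with medium, a log2 ratio of 0.02. Of the subunits that recharge eEF1A, Eef1b2 had 5843 with P25 and 4922 with medium, a log2 ratio of 0.25, and Eef1d had 3428 with P25 and 2309 with medium, 1.48-fold higher. Eef1a2, the form of muscle and neurons, was dim at 64.4 with P25 and 58.7 with medium. Of the 121 genes with a mean signal of 4000 or more, which hold Eef1a1, Eef2, Eef1b2, Eif5a and 4 more of these genes, 0.826% were at least 2-fold higher and 0.0% at least 2-fold lower. Whether probe sets of such brightness still follow a change was not tested.

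Eef1e1 stood apart, at 1302 with P25 and 375 with medium, 3.47-fold higher on its single probe set. Despite its name, its protein is an auxiliary member of the complex that holds several aminoacyl-tRNA synthetases. Eif5a, whose protein carries hypusine, a lysine modified from spermidine, had 7938 with P25 and 5717 with medium, 1.39-fold higher. A dimmer probe set of Eif5a gave 2624 with P25 and 944 with medium, a log2 ratio of 1.48, so the size of its difference depended on the probe set. Its relative Eif5a2 was dim, at 62.7 with P25 and 78.1 with medium, with log2 ratios of -0.32 and 0.13 on its probe sets.

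Among the enzymes that modify the elongation factors, Eef1aknmt, a methyltransferase of eEF1A, had 67.0 with P25 and 30.9 with medium, 2.17-fold higher, with 0.80 and 0.995 on its other probe sets; with a floor at the 60th percentile of signals its log2 ratio was 0.79. The eEF1A lysine methyltransferase genes Eef1akmt1 and Eef1akmt2 were 1.57-fold and 1.40-fold higher. Eef2k, the kinase that halts eEF2, had 80.8 with P25 and 101 with medium, a log2 ratio of -0.32 that was the lowest of all 51 genes, and its other probe sets gave -0.04 and -2.001. The value of -2.001 came from signals of 12.2 with P25 and 48.7 with medium. Eef2kmt, a methyltransferase of eEF2, was below the floor.

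Agreement between probe sets was limited. Of the 14 genes at least 2-fold higher, 9 had a second probe set that could be read on each array; it had a log2 ratio above 0 in all 9 and passed 2-fold in 3 (Eif1a, Eif4a1 and Eif4e). Among all genes at least 2-fold higher, the second probe set passed in 301 of 534 (56.4%). The other 5 (Eif2b1, Eif2b3, Eif2b4, Eif3b and Eef1e1) had 1 probe set. With the median over all measured probe sets in place of the brightest, 9 of the 14 stayed past 2-fold, and Eif1ax, Eif4e2, Eif5b, Eif6 and Eef1aknmt came to 0.53, 0.39, 0.69, 0.84 and 0.99, while Eif2a came past it.

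**Figure D3:**
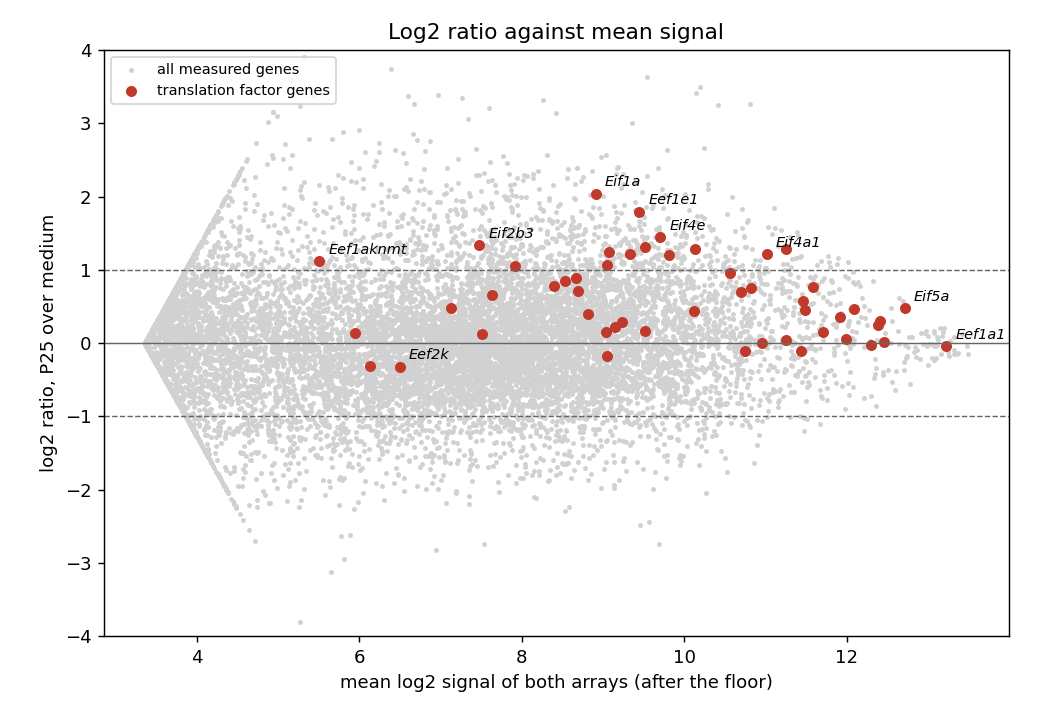
Log2 ratio (P25 over medium) against mean log2 signal of both arrays, with all measured genes in grey, the 51 translation factor genes in red and dashed lines at 2-fold; 8 grey genes lie outside the plotted range. Red points beyond 2-fold higher lie mostly in the middle of the signal range, and at its bright end both red and grey points close in on 0.

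The ratios varied with signal. Of 23 factor genes with a mean signal of 100 to under 1000, 10 were at least 2-fold higher, against 10.8% of all genes in that range, and none was 2-fold lower, against 6.5%. Their median log2 ratio was 0.85, against 0.02 for all genes there. Of 24 with a mean signal of 1000 or more, 3 were at least 2-fold higher (Eif1ax, Eif2s2 and Eif4a1), against 11.4% of all such genes, and none was 2-fold lower, against 4.75%. The median of these 24 was 0.39, against 0.12. The remaining 4, under 100, included Eef1aknmt as the one gene past 2-fold, against 7.74% of all genes there, and none was 2-fold lower, against 8.34%.

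Promoters of these genes were searched for the E-box CACGTG, the sequence bound by MYC with MAX and by related factors; it reads the same on both strands. RefSeq windows (GRCm38.p6) from 250 bases before to 50 after the annotated start matched 43 of the 54 genes. At least 1 E-box was found in 12 of the 43 (27.9%), against 11.3% of 10389 measured genes with a window and 8.09% of all 27025 genes with one. Median GC content was 62.7% in the windows of these genes and 60% in those of all measured genes. Among the factor genes it was found in 3 of 11 genes at least 2-fold higher (27.3%) and in 9 of the other 29 measured ones (31.0%). Among all measured genes at least 2-fold higher with a window it was found in 136 of 996 (13.7%). Windows upstream of the start are printed for genes of both kinds, with the E-box in capitals, to show the letters around it. The first 4 belong to Eif4e (both of its E-boxes), Eif4a1 and Eef1aknmt, all at least 2-fold higher, and the last 2 to Eef2 and Eif3f, with log2 ratios of 0.02 and -0.03.
Eif4e, chr3:138527018-138527075, plus strand: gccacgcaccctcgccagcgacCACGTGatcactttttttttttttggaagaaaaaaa
Eif4e, chr3:138527174-138527239, plus strand: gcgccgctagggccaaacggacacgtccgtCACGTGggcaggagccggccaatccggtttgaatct
Eif4a1, chr11:69672577-69672642, minus strand: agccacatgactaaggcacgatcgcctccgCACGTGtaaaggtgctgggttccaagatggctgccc
Eef1aknmt, chr1:162548457-162548522, minus strand: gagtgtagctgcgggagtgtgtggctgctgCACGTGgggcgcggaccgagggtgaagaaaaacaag
Eef2, chr10:81176558-81176623, plus strand: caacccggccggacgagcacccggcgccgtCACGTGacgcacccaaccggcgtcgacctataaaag
Eif3f, chr7:108934317-108934382, plus strand: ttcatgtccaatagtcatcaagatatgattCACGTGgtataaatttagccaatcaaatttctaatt
In Eif4e the E-boxes start 228 and 64 bases before the annotated start, in Eif4a1 189, in Eef1aknmt 147, in Eef2 43 and in Eif3f 68. A match describes the letters of the window and not binding.

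Genes that regulate or surround these factors were read from lists of 51 measured genes. The kinases that phosphorylate eIF2α split. Eif2ak2, the interferon-inducible kinase PKR that senses double-stranded RNA, had 242 with P25 and 63.3 with medium, 3.82-fold higher. Eif2ak3, the kinase PERK of the endoplasmic reticulum, had 309 with P25 and 818 with medium, 2.65-fold lower. The other kinases, Eif2ak1 and Eif2ak4, and the phosphatase subunit Ppp1r15b lay between -0.08 and 0.08 on the log2 scale, and Ppp1r15a at -0.53. The mTORC1 list covers the kinase complex that phosphorylates the eIF4E-binding proteins and its neighbours, and its median log2 ratio was -0.30. The list pools parts of the pathway with inhibitors, so its median gives no direction of pathway activity. Of its 13 genes 11 had a log2 ratio below 0, against 6269 of all 12897 measured genes. With median scaling 8 of the 13 did, and the list median was -0.15, against 0.15 for all genes. With the median over probe sets the list median was -0.14. Mtor, Rptor and Mlst8 had log2 ratios of -0.06, 0.13 and -0.18. Those of Tsc1, Tsc2, Akt1s1 and Deptor were -0.30, -0.44, -0.30 and -0.69, with Deptor dim at 17.4 with P25 and 28.1 with medium. Larp1, which binds messages of the translation machinery, was the 1 gene at least 2-fold higher, at 985 with P25 and 450.4 with medium. This was 7.69% of the list, against 9.43% of all measured genes. Mknk1, a kinase of eIF4E, had the lowest log2 ratio of that list, -0.82, and Pdcd4, an inhibitor of eIF4A, had 579 with P25 and 848 with medium, a log2 ratio of -0.55.

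Poly(A)-binding proteins circularise messages with eIF4G. Pabpc4 had 1273 with P25 and 610.0 with medium, a log2 ratio of 1.06, and Paip2, which pulls poly(A)-binding protein off the message, had 1461 with P25 and 2928 with medium, a log2 ratio of -1.0025. Both values depended on the processing. No gene of this list was 2-fold higher after loess, with the median over probe sets or without probe sets named _x_at or _s_at. None was 2-fold lower with median or spike-in scaling. Pabpc1 had 7401 with P25 and 6961 with medium. None of the 5 helicase and reinitiation genes was 2-fold higher, but all lay above 0, from 0.23 for Ddx3x to 0.98 for Denr. With the median over probe sets 4 of these 5 lay above 0, and their median was 0.31, against 0.71 with the brightest probe set. Among all measured genes 51.4% lay above 0. All 5 measured termination and recycling genes were above 0, with a median log2 ratio of 0.94, led by the release factor GTPase gene Gspt1 (1286 with P25 and 525 with medium); Gspt2 was below the floor. All 9 genes that make hypusine on eIF5A or diphthamide on eEF2 were above 0, with a median of 0.61, from 0.12 for Dph1 to 1.14 for Dph6. With the median over probe sets 8 of these 9 were above 0, with a median of 0.41. Of 8 mitochondrial translation factors 3 (37.5%) passed 2-fold higher, against 9.43% of all measured genes. They were Tufm, Gfm1 and Tsfm, at 1.51, 1.35 and 1.09, and Mtif3 was lowest at -0.49. Without probe sets named _x_at or _s_at, 2 of the 8 passed.

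**Figure D4:**
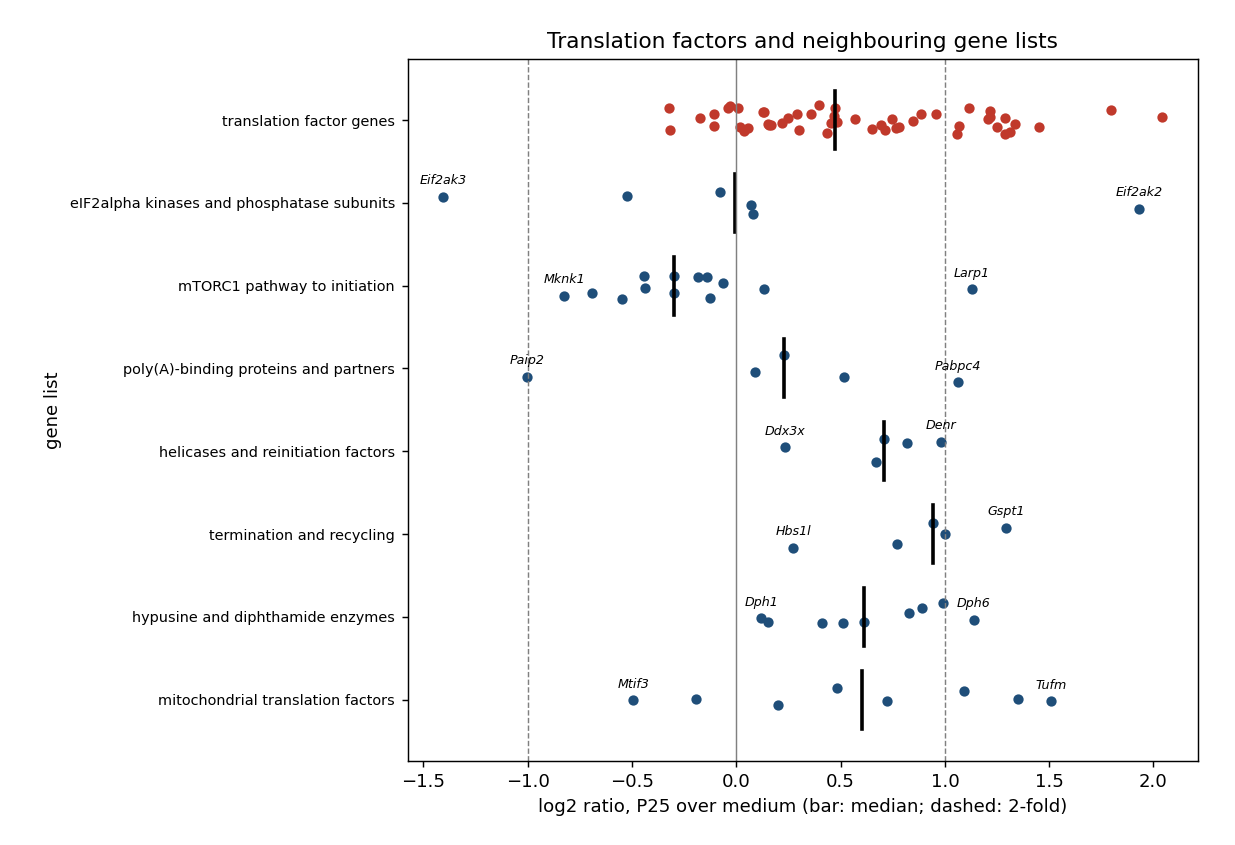
Log2 ratio (P25 over medium) of each measured gene in the translation factor set (top row, red) and in 7 lists of neighbouring genes (blue), with the list median as a bar, dashed lines at 2-fold and the highest and lowest gene of each blue list named. Medians run from -0.30 for the mTORC1 list to 0.94 for termination and recycling.

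Other parts of the translation machinery are given for orientation, without a test of the difference. Cytosolic ribosomal protein genes, 41 of them measured, had a median log2 ratio of -0.01 (0.14 with median scaling). Of these 2 (4.88%) passed 2-fold higher, against 9.43% of all measured genes, and none passed 2-fold lower, against 7.22%. Cytosolic aminoacyl-tRNA synthetase genes, 19 in number, were all above 0 (18 with the median over probe sets), against 51.4% of all measured genes. Of the 19 genes 10 (52.6%) passed 2-fold higher, against 9.43% of all. Their median signal ratio was 2.01.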

How the data were processed

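Total RNA of APCs was labelled with biotin and hybridised to 1 Affymetrix array per group. The deposited values are MAS5 signal intensities from GCOS, on a linear scale, per the submitters' processing notes; versions, scaling target and detection calls are not named there. Groups came from the treatment label. The files hold 45101 probe sets, 64 of them controls. Of the others 34945 carried 1 gene symbol in the platform annotation and 932 several; all 54 members matched the symbol of their Entrez number in RefSeq (GRCm38.p6). Signals under the 40th percentile over both arrays (10.3) were set to it, and a gene was measured when 1 array or more lay above. Ratios were taken with pandas 2.3.3 and numpy 2.4.6, loess with statsmodels 0.14.6 and figures with matplotlib 3.10.9. The calculation was tested on simulated data, in which genes well above the floor were changed by more than 2-fold. The simulated noise was smaller than the spread between probe sets of a gene. Calls near 2-fold or near the floor were therefore not tested. All members may be named, and of each neighbouring list the highest and lowest gene; the text adds some others. Members and lists were chosen with earlier results of these data known. The ribosomal protein and synthetase lists and the E-box search were added after the data were seen. MAS5 subtracts mismatch signal, which makes ratios of low signals unsteady, and the number of arrays limits the precision.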

Additional observations from a re-analysis of the deposited data

How the results depend on the processing

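The count of 14 genes at least 2-fold higher was 13 with a floor at the 60th percentile (38.6) or after loess, 14 with log2(signal + 1) in place of a floor or without _x_at and _s_at probe sets, 16 with median or spike-in scaling, and 10 with the median over probe sets. At 1.5-fold it was 23. No gene was 2-fold lower except Eif4h without _x_at and _s_at probe sets, where the count was 1. The median log2 ratio ranged from 0.34 (loess) to 0.62 (median and spike-in scaling). After loess 12 genes were below 0, against 7 on the deposited scale. No gene past 2-fold changed sign under these alternatives. No paired analysis was possible because each group has 1 array.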

Other observations

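Messages of several of these genes are known, as background, to carry the 5′-terminal oligopyrimidine tract that puts them under control of mTORC1 at the level of translation. Those taken as such, chosen after their values were seen and so given with no test, are Eef1a1, Eef1b2, Eef1d, Eef2, Eif3e, Eif3f, Eif3h and Eif4b. None of the 8 was at least 2-fold higher, all 8 lay within 1.5-fold, and their log2 ratios ran from -0.11 to 0.57 with a median of -0.01. The other 43 measured genes had a median of 0.69, and 14 of them passed 2-fold higher, against 9.43% of all measured genes. No message was searched for the tract, so the other 43 may hold further messages that carry it. Each of the 8 had a mean signal of 1000 or more. Among the 16 other genes of that brightness the median log2 ratio was 0.47, and 3 were at least 2-fold higher, against 11.4% of all genes of that brightness. After loess, which follows signal, 12 of the 51 genes were below 0. They included Eif3e, Eif3f, Eif3h, Eif4b, Eef1a1 and Eef2 of the 8, and Eif3k, Eif5 and Eif4a2 (log2 ratios of -0.17, -0.14 and -0.02) of the 16. A list picked in this way supports no difference from the other genes.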
